A study of Mus musculus with 23 samples.

Results

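Lipid-associated macrophages are the fat-laden macrophages that gather around dying fat cells in obese adipose tissue, and the 10 genes described here are markers commonly used for them. The set holds Trem2, Tyrobp, Cd9, Gpnmb, Spp1, Mmp12, Lgals3, Cd63, Itgax and Atp6v0d2, which were taken as a list of names, 10 of the 47311 genes to which the deposited transcripts could be summed. All 10 were counted well enough to be tested. They were followed across 23 libraries of mammary fat pad taken beside breast tumors of female C57BL/6J mice, and against the amount of lymph node in each pad.

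Tumors in all groups came from 250000 E0771-luciferase cells, a mouse mammary carcinoma line, injected into mammary gland 4. Dosing began on day 3 and was repeated every 3 days until day 21, with 200 µg of anti-PD-1, which blocks a brake on T cells, or of the isotype control IgG2a. The groups were obese anti-PD-1 (8 libraries), obese IgG2a (5), lean anti-PD-1 (5) and lean IgG2a (5). Obese mice were labelled as fed a diet with 60% of its energy as fat and lean mice one with 10%. The treatment text gives the 60% diet from 8 to 26 weeks of age for every sample, lean mice included, so the age and feeding period of the lean mice are not stated separately. No group without a tumor was analysed here, so each value is a level in tumor-bearing pads.

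TREM2 is a surface receptor of macrophages that binds lipids and lipoproteins. It has almost no signalling part of its own and passes its signal through the adaptor TYROBP (DAP12), which recruits the kinase SYK. In adipose tissue, macrophages that carry TREM2 take up fat released by dying adipocytes and break it down in their lysosomes, and mice without Trem2 are known to form fewer of these cells.

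The sequences upstream of Trem2, Mmp12 and Gpnmb are shown because these members rose in obese mice under both antibodies and a RefSeq promoter entry was matched for them. Each line runs 5′ to 3′ on the gene's own strand in build GRCm38.p6, from 250 bases before the RefSeq start, ending before the annotated gene. The Trem2 window is chr17:48346151-48346400 (plus strand), the Mmp12 window is chr9:7344147-7344380 (plus strand, 234 bases) and the Gpnmb window is chr6:49036268-49036517 (plus strand). Capitals mark matches on either strand to GAGGAA, the core bound by the macrophage factor PU.1, or to TGANTCA, an AP-1 motif.
Trem2: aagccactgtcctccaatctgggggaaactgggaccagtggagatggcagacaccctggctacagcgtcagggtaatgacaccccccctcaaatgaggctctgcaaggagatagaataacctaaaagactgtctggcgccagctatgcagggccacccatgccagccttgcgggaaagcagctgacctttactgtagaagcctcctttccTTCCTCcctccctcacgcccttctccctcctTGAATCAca
Mmp12: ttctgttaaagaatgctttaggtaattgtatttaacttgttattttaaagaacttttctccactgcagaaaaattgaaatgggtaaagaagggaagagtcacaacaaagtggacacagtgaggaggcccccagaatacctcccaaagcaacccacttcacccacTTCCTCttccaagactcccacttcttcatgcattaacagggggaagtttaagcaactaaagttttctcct
Gpnmb: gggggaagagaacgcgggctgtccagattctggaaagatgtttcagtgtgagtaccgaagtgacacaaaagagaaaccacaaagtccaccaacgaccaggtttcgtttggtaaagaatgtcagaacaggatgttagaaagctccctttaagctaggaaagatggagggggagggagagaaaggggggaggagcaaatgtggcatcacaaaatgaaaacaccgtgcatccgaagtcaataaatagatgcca
The Trem2 window held the PU.1 core starting 40 bases before the start and an AP-1 match starting 9 bases before it, while Mmp12 held the PU.1 core 86 bases before its start. CACGTG and CATGTG, E-boxes of the kind bound by lysosomal regulators of the MiT family, were searched too and gave no match in these 3 windows. RefSeq windows were matched for 8 of the 10 members. The PU.1 core was found in 4 of these 8 windows and in 23.3% of 32851 windows of 250 bases in the whole table. TGANTCA was found in 2 of the 8 windows and in 6.75% of all windows. CATGTG was found in 1 of the 8 and in 12.3% of all, and CACGTG in none of the 8 and in 6.02% of all. The motifs do not overlap one another in the windows shown, and a match describes letters only.

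Libraries held 49438121 to 77369057 estimated counts. Lean anti-PD-1 library 4 had 14801 genes with at least 10 counts, against 16687 to 18400 in the others. Lymph node tissue separated the 23 libraries. Glycam1, a mucin of lymph node vessels, was at 124 to 1779 CPM (counts scaled to a common library total) in 11 libraries. In the other 12 it was at 0 to 0.458 CPM. The 11 Glycam1-high libraries were 2 of 8 obese anti-PD-1 (3 and 4), 2 of 5 obese IgG2a (1 and 3), 3 of 5 lean anti-PD-1 (1, 3 and 5) and 4 of 5 lean IgG2a (1 to 4), so node content was unevenly spread over the diets. A split by B cell markers put all 23 libraries in the same classes. Obese IgG2a libraries 2, 4 and 5 stood apart by Hmga2, a chromatin protein of embryonic and tumor cells, which reached 94.2 CPM in library 2 and 170 CPM in library 5, was lower in library 4, and was at most 5.84 CPM in any library outside these 3, and obese IgG2a 5 also held 6363 CPM of the liver gene Alb. Values of the members called under IgG2a are given with and without libraries 2 and 5, and without all 3, which leaves obese IgG2a libraries 1 and 3, both Glycam1-high. General macrophage genes were present throughout, with Adgre1, Cd68 and Csf1r each at 8.80 CPM or more in every library.

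Compared per transcript length, the members differed widely in level. Cd63 had the highest median over the 23 libraries, 400 TPM (scaled for transcript length and library total), followed by Lgals3 at 181, Cd9 at 99.1 and Tyrobp at 57.8 TPM. Then came Gpnmb at 5.97, Mmp12 at 5.42, Itgax at 5.11, Trem2 at 4.87, Spp1 at 3.93 and Atp6v0d2 at 1.61 TPM. Of 23 libraries, Cd63 exceeded Lgals3 in 18, Lgals3 exceeded Cd9 in 21, Cd9 exceeded Tyrobp in 18 and Tyrobp exceeded Gpnmb in 21. Further down, Gpnmb exceeded Mmp12 in 14, Mmp12 exceeded Itgax in 16, Itgax exceeded Trem2 in 8, Trem2 exceeded Spp1 in 10 and Spp1 exceeded Atp6v0d2 in 19. The order from Gpnmb to Spp1 thus varied from library to library.

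Between obese and lean mice under IgG2a, 5 of the 10 members rose and none fell: Trem2, Mmp12, Spp1, Atp6v0d2 and Gpnmb. A gene is called risen or fallen at a Benjamini-Hochberg adjusted p under 0.05 in edgeR's quasi-likelihood test over 19882 genes. In that comparison 5.79% of all genes tested were called, 2.68% as higher and 3.12% as lower. Under anti-PD-1, 4 members rose (Mmp12, Trem2, Gpnmb and Atp6v0d2) and none fell, where 10.1% of all genes were called 5.20% higher and 4.85% lower. The median log2 fold change of the 10 members was 1.77 under IgG2a and 1.21 under anti-PD-1, beside 0.12 and 0.08 over all genes tested. Averaged over both antibodies, 6 members rose, with Itgax and Spp1 added to the 4, where 18.8% of all genes were called 10.6% higher and 8.15% lower. Under anti-PD-1 the called genes were 1034 higher and 965 lower, against 3155 and 421 on the log2(TPM + 1) scale with limma, where the median of all genes shifted by 0.20. The split was 532 higher and 620 lower, against 514 and 298, under IgG2a, and 2110 and 1621, against 4981 and 826, for the average. Markers of other cells moved with diet too. All 10 mammary epithelium markers fell in the average, 4 of them under IgG2a and 9 under anti-PD-1. Of 9 NK and neutrophil markers tested, 5 rose in the average, each a neutrophil or myeloid gene (S100a8, S100a9, Retnlg, Mpo and Csf3r), and S100a8 rose under both antibodies, by 4.29 under IgG2a and 4.26 under anti-PD-1 (edgeR adjusted p = 0.0167 and 0.00983). The 10 genes of that list summed to 4.80 to 82.7 CPM in obese anti-PD-1, 23.5 to 150 in obese IgG2a, 0.192 to 37.5 in lean anti-PD-1 and 7.90 to 46.3 CPM in lean IgG2a libraries, and their part in the members' values was not tested. Whether more cells of a type or more RNA per cell was present cannot be told apart in whole pads.

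**Figure D1:**
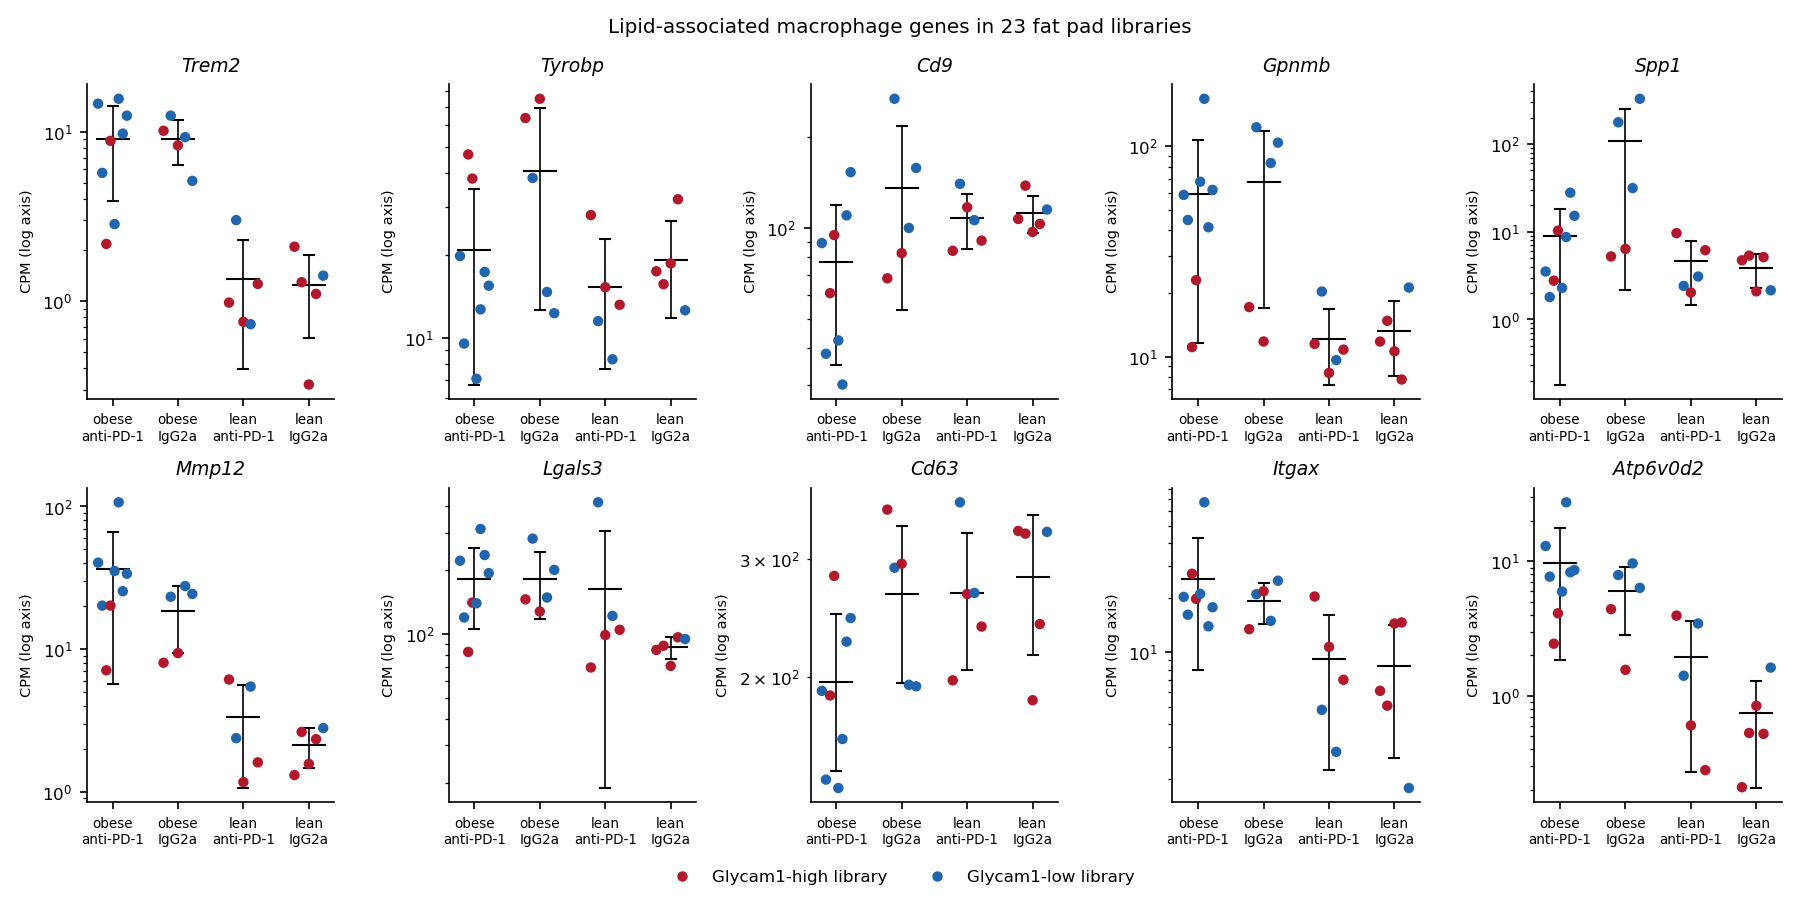
CPM (log axis, one scale per gene) of the 10 genes in each of 23 libraries, by group, with the mean and SD; red points are Glycam1-high and blue points Glycam1-low libraries. Every obese library lies above every lean one for Mmp12, while Cd9 and Cd63 overlap throughout.

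Trem2 was low in lean and several-fold higher in obese pads. Obese IgG2a libraries held 10.1, 12.4, 8.28, 9.26 and 5.11 CPM of Trem2, against 2.09, 1.29, 0.321, 1.10 and 1.41 CPM in lean IgG2a libraries. With anti-PD-1, obese libraries held 2.17 to 15.6 CPM (median 9.26), against 0.978, 3.00, 0.753, 0.729 and 1.26 CPM in lean libraries. All obese IgG2a libraries exceeded all lean IgG2a libraries, as they did for 1.83% of the genes tested. Under anti-PD-1, obese libraries 3 and 5 fell within the reach of the highest lean library. Trem2 rose by a log2 fold change of 2.86 (SE 0.566, edgeR adjusted p = 0.00430) under IgG2a and 2.74 (SE 0.538, edgeR adjusted p = 0.00236) under anti-PD-1. The rise under IgG2a was 2.91 (edgeR adjusted p = 0.0175) without obese IgG2a libraries 2 and 5, and 2.94 (0.0301) without 2, 4 and 5. Within the Glycam1-high libraries alone the values were 2.92 (edgeR adjusted p = 0.0193) for IgG2a and 2.50 (0.0816) for anti-PD-1, and within the Glycam1-low ones 2.62 (0.253) and 2.36 (0.0546), where 1 to 6 libraries remained per group.

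Tyrobp is the adaptor through which TREM2 signals and which other myeloid and NK cell receptors share. It was not called in any obesity comparison in edgeR's fit of all 23 libraries by group. It had 63.6, 38.4, 74.8, 14.7 and 12.3 CPM in obese IgG2a libraries, against 17.5, 15.7, 18.7, 32.1 and 12.6 CPM in lean IgG2a libraries. Obese anti-PD-1 libraries spanned 7.08 to 46.8 CPM (median 16.4) and lean anti-PD-1 libraries had 28.1, 11.5, 15.3, 8.34 and 13.2 CPM. The groups overlapped under both antibodies. The log2 differences were 1.08 (SE 0.518, edgeR adjusted p = 0.252) under IgG2a and 0.45 (SE 0.469, edgeR adjusted p = 0.636) under anti-PD-1. With log2 Glycam1 as a covariate Tyrobp passed the test under IgG2a, at 1.26 (edgeR adjusted p = 0.0157). It also passed under IgG2a within the Glycam1-high libraries. The average over the antibodies passed in both of these settings, and anti-PD-1 alone in neither. With the macrophage marker score as a covariate the IgG2a value was -0.46 (edgeR adjusted p = 0.661).

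Among the surface proteins, CD9 and CD63 are tetraspanins, membrane organizers found in many cell types, CD63 mostly in lysosomes. Neither gene was called in an obesity comparison. Cd9 ranged over 68.0 to 268 CPM in obese IgG2a and 96.9 to 138 CPM in lean IgG2a libraries, and over 30.2 to 153 and 83.9 to 140 CPM in obese and lean anti-PD-1 libraries. Its highest level stood in obese IgG2a library 2. Cd63 ranged over 194 to 355 CPM in obese IgG2a and 185 to 330 CPM in lean IgG2a libraries, and over 137 to 283 and 198 to 364 CPM in obese and lean anti-PD-1 libraries. The log2 differences of Cd9 were 0.27 (SE 0.386) under IgG2a and -0.47 (SE 0.344) under anti-PD-1, and those of Cd63 were -0.09 (SE 0.241) and -0.44 (SE 0.215). The Cd63 values turned positive on the TPM scale, to 0.25 and 0.05, so no direction is given for it.

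Itgax encodes CD11c, an integrin chain of dendritic cells and of macrophages in obese fat. Obese IgG2a libraries held 13.4, 20.9, 21.7, 14.9 and 24.8 CPM, against 6.12, 5.07, 14.4, 14.6 and 1.78 CPM in lean IgG2a libraries. Obese anti-PD-1 libraries held 13.9 to 67.2 CPM (median 19.9), against 20.3, 4.81, 10.7, 2.82 and 7.04 CPM in lean anti-PD-1 libraries. A single obese library lay below the highest lean ones under IgG2a, while the highest lean anti-PD-1 library reached the middle of its obese counterparts. In edgeR's fit of all 23 libraries by group, neither antibody's comparison alone was called. The values were 1.19 (SE 0.535, edgeR adjusted p = 0.211) under IgG2a and 1.47 (SE 0.503, edgeR adjusted p = 0.0648) under anti-PD-1. With log2 Glycam1 as a covariate Itgax was called under both antibodies. Under anti-PD-1 it was also called by limma on both TPM scales and by DESeq2's test. With the macrophage marker score or Hmga2 as a covariate it was called under neither antibody. Averaged over the antibodies Itgax rose by 1.33 (SE 0.366, edgeR adjusted p = 0.0137), a call lost with the macrophage marker score as a covariate (0.96, edgeR adjusted p = 0.0854). Dendritic cell markers moved with the lymph node, their 8 genes summing to 62.6 to 319 CPM in Glycam1-high and 21.4 to 44.7 CPM in Glycam1-low libraries, and their part in Itgax was not tested.

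Mmp12, the macrophage elastase, was the member with the cleanest separation by diet. It had 8.03, 23.3, 9.39, 27.7 and 24.4 CPM in obese IgG2a libraries, against 1.31, 2.63, 1.57, 2.34 and 2.80 CPM in lean IgG2a libraries. Obese anti-PD-1 libraries had 7.11 to 107 CPM (median 29.6), against 6.13, 2.38, 1.17, 5.47 and 1.61 CPM in lean anti-PD-1 libraries. All 13 obese libraries exceeded all 10 lean ones, which 0.226% of the genes tested did. Mmp12 rose by 3.12 (SE 0.597, edgeR adjusted p = 0.00325) under IgG2a and 3.43 (SE 0.581, edgeR adjusted p = 6.5e-04) under anti-PD-1. Without obese IgG2a libraries 2 and 5 the IgG2a value was 2.82 (edgeR adjusted p = 0.0261). The call was lost without 2, 4 and 5, at 2.08 (edgeR adjusted p = 0.115), and with Hmga2 as a covariate, at 1.98 (0.159). Within the Glycam1-high libraries the values were 2.12 (edgeR adjusted p = 0.0472) for IgG2a and 2.25 (0.0943) for anti-PD-1, and within the Glycam1-low ones 3.11 (0.118) and 3.39 (0.00736).

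Spp1 encodes osteopontin, a secreted glycoprotein made by macrophages, by osteoblasts and by many tumors. Obese IgG2a libraries held 5.23, 177, 6.37, 31.5 and 328 CPM, against 4.73, 5.35, 2.09, 5.14 and 2.15 CPM in lean IgG2a libraries. Obese anti-PD-1 libraries held 1.80 to 27.9 CPM (median 6.11), against 9.65, 2.41, 2.03, 3.09 and 6.16 CPM in lean anti-PD-1 libraries. The high values under IgG2a sat in libraries 2, 4 and 5, the same that were high in Hmga2, while libraries 1 and 3 were near the lean level. Spp1 rose by 4.81 (SE 1.05, edgeR adjusted p = 0.00880) under IgG2a, and was not called under anti-PD-1, at 0.96 (SE 0.834, edgeR adjusted p = 0.551). Without obese IgG2a libraries 2 and 5 the IgG2a value was 1.90 (edgeR adjusted p = 0.339), without 2, 4 and 5 it was 0.64 (0.691), and with log2 Hmga2 CPM as a covariate 0.31 (0.903). It was 0.40 (edgeR adjusted p = 0.711) within the Glycam1-high libraries and 6.34 (0.238) within the Glycam1-low ones. The summed tumor-like list (8 genes with Hmga2, Fosl1, Mmp13 and cell cycle genes) spanned 94.6 to 843 CPM in obese IgG2a and 27.6 to 155 CPM in lean IgG2a libraries, with Lin28b below 1 CPM in all. Its part in Spp1 beyond the Hmga2 covariate was not tested.

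**Figure D2:**
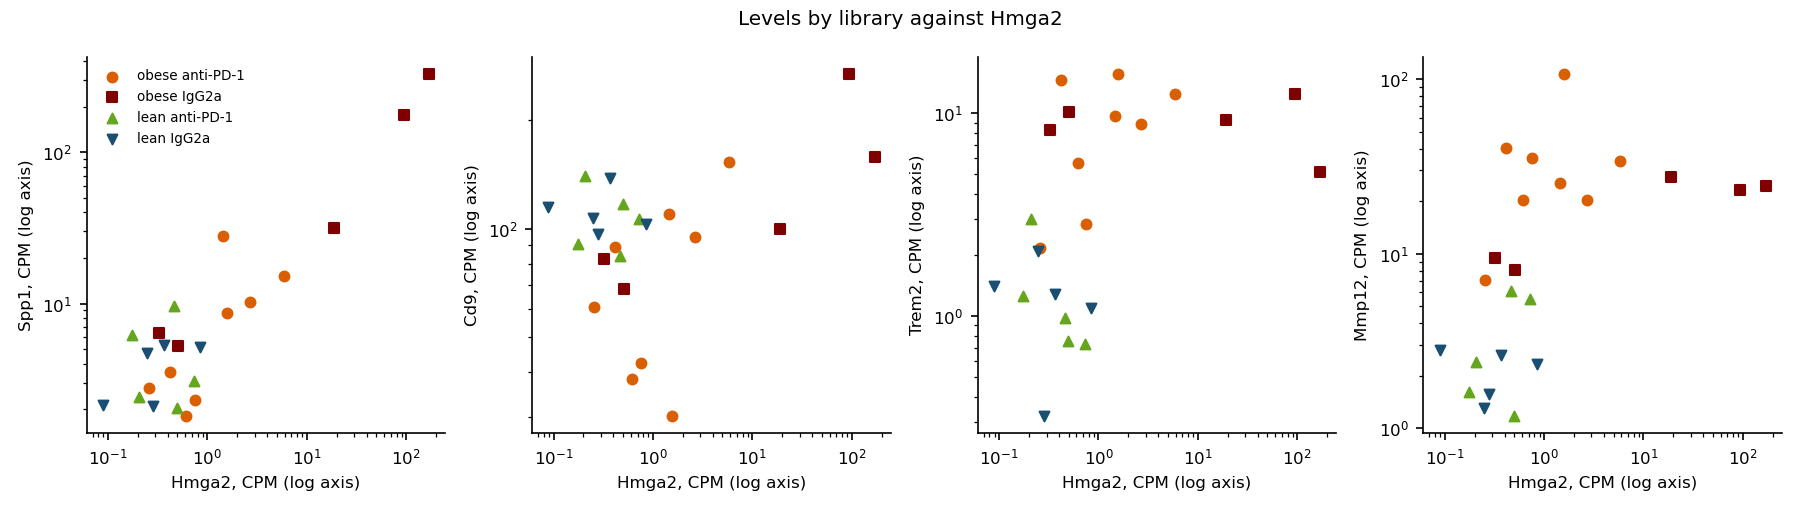
CPM (both axes log) of Spp1, Cd9, Trem2 and Mmp12 against Hmga2 in each of 23 libraries, with symbols for the 4 groups. Spp1 is highest, at 177 and 328 CPM, in the obese IgG2a libraries with 94.2 and 170 CPM of Hmga2. Trem2 is at 2.17 to 15.6 CPM in obese anti-PD-1 libraries, lowest in libraries 3 and 5 at 2.17 and 2.84 CPM. Within obese IgG2a, Trem2 is at 8.28 and 10.1 CPM in libraries 1 and 3, against 5.11 to 12.4 CPM in libraries 2, 4 and 5. Mmp12 is at 7.11 to 107 CPM in obese anti-PD-1 libraries, which have little Hmga2. Within obese IgG2a, Mmp12 is at 8.03 and 9.39 CPM in libraries 1 and 3, against 23.3 to 27.7 CPM in libraries 2, 4 and 5.

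Lgals3, galectin-3, is a secreted sugar-binding protein made in quantity by macrophages and also by epithelium. Obese IgG2a libraries held 146, 282, 128, 149 and 201 CPM, against 71.0 to 96.8 CPM (5 libraries) in lean IgG2a libraries. Obese anti-PD-1 libraries held 82.6 to 313 CPM (median 167), against 69.8, 418, 99.2, 122 and 105 CPM in lean anti-PD-1 libraries. Under IgG2a every obese library exceeded every lean one, as did 1.83% of the genes tested, yet the difference of 1.06 (SE 0.402, edgeR adjusted p = 0.129) was not called. It passed the test with only the groups compared (1.02, edgeR adjusted p = 0.0353) and without lean anti-PD-1 library 2 (1.06, 0.0382). Under anti-PD-1 it was 0.15 (SE 0.360, edgeR adjusted p = 0.876), and 0.87 without lean anti-PD-1 library 2, which held the 418 CPM. That library also had the highest Krt19, an epithelial keratin, at 1298 CPM. The 10 mammary epithelium markers summed to 279 to 1646 CPM in obese anti-PD-1 and 1196 to 4386 CPM in lean anti-PD-1 libraries, and their part in Lgals3 was not tested.

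Gpnmb encodes a membrane glycoprotein of lysosomes and melanosomes that lipid-laden macrophages make. It had 17.2, 123, 11.8, 83.2 and 104 CPM in obese IgG2a libraries, against 11.8, 14.8, 10.6, 7.79 and 21.3 CPM in lean IgG2a libraries. Obese anti-PD-1 libraries had 11.1 to 168 CPM (median 51.7), against 11.5, 20.4, 8.37, 9.63 and 10.8 CPM in lean anti-PD-1 libraries. The low values in obese IgG2a mice were those of the Glycam1-high libraries 1 and 3, and the groups overlapped under both antibodies. Gpnmb rose by 2.36 (SE 0.619, edgeR adjusted p = 0.0269) under IgG2a and 2.29 (SE 0.586, edgeR adjusted p = 0.0157) under anti-PD-1. The IgG2a call was lost in 6 of the fits that leave out a library (edgeR adjusted p up to 0.0783), and without obese IgG2a libraries 2 and 5 the value was 1.49 (0.354). It was 0.17 (edgeR adjusted p = 0.896) without 2, 4 and 5, and 0.38 (0.891) with Hmga2 as a covariate. Within the Glycam1-high libraries the values were 0.34 (edgeR adjusted p = 0.538) for IgG2a and 0.79 (0.257) for anti-PD-1, and within the Glycam1-low ones 2.23 (0.180) and 2.21 (0.0225).

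Atp6v0d2 encodes a subunit of the lysosomal proton pump found mainly in macrophages and osteoclasts. Obese IgG2a libraries held 4.41, 7.91, 1.56, 9.66 and 6.35 CPM, against 0.209, 0.529, 0.843, 0.521 and 1.62 CPM in lean IgG2a libraries. Obese anti-PD-1 libraries held 2.44 to 27.5 CPM (median 8.00), against 3.95, 1.41, 0.602, 3.45 and 0.280 CPM in lean anti-PD-1 libraries. Obese library 3 under IgG2a fell just below the highest lean library, and under anti-PD-1 obese library 3 lay below the upper lean ones. Atp6v0d2 rose by 3.00 (SE 0.739, edgeR adjusted p = 0.0187) under IgG2a and 2.32 (SE 0.680, edgeR adjusted p = 0.0325) under anti-PD-1. Its call was lost without lean IgG2a library 1 or 2 under IgG2a (edgeR adjusted p up to 0.0639), and in 5 of the fits that leave out a library under anti-PD-1 (up to 0.0783). Under IgG2a it was also lost without obese IgG2a libraries 2 and 5 (2.78, edgeR adjusted p = 0.105), without 2, 4 and 5 (2.03, 0.223) and with Hmga2 as a covariate (2.05, 0.378). Under anti-PD-1 it was lost with only the groups compared (2.32, edgeR adjusted p = 0.0534), with log2 Glycam1 as a covariate (1.73, 0.0631) and with Hmga2 as a covariate (2.12, 0.0546). Within the Glycam1-high libraries the values were 2.48 (edgeR adjusted p = 0.104) for IgG2a and 1.08 (0.564) for anti-PD-1, and within the Glycam1-low ones 2.25 (0.243) and 2.19 (0.0391). The 7 osteoclast markers summed to 240 to 464 CPM in obese anti-PD-1, 161 to 366 in obese IgG2a, 409 to 545 in lean anti-PD-1 and 398 to 672 CPM in lean IgG2a libraries. Most of that was Acp5, with group means of 219 to 478 CPM, followed by Nfatc1 and Ctsk, which other cells also make, while Calcr and Oscar stayed below 1 CPM in all libraries. Their part in Atp6v0d2 was not tested.

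The general macrophage markers were called in part. The 10 macrophage markers summed to 438 to 1612 CPM (median 588) in obese anti-PD-1, 570 to 2723 (928) in obese IgG2a, 490 to 1147 (586) in lean anti-PD-1 and 573 to 1191 (773) in lean IgG2a libraries. Lyz2 was the largest part, with group means of 303 to 848 CPM. Its mean was 772 CPM in Glycam1-high and 166 CPM in Glycam1-low libraries. The sum was 553 to 2723 CPM in Glycam1-high and 438 to 928 CPM in Glycam1-low libraries. The part of node content in the group sums was not tested. Among the macrophage markers called, Cd68 and Fcgr1 rose under IgG2a and Cd14 fell under anti-PD-1. Averaged over the antibodies, Adgre1, Csf1r and Cd68 were among those that rose and Cd14 fell, where 18.8% of all genes were called. Cd68, a lysosomal glycoprotein, rose by 1.21 (edgeR adjusted p = 0.0280) under IgG2a. With the mean log2 level of these markers as a covariate, the IgG2a values were 2.86 for Trem2, 3.18 for Mmp12, 5.50 for Spp1, 3.02 for Atp6v0d2 and 2.55 for Gpnmb. All but Gpnmb stayed called under IgG2a (edgeR adjusted p = 0.0585 for Gpnmb). Under anti-PD-1 the same covariate gave 2.74 for Trem2, 3.44 for Mmp12, 2.31 for Gpnmb and 2.32 for Atp6v0d2, each still called.

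**Figure D3:**
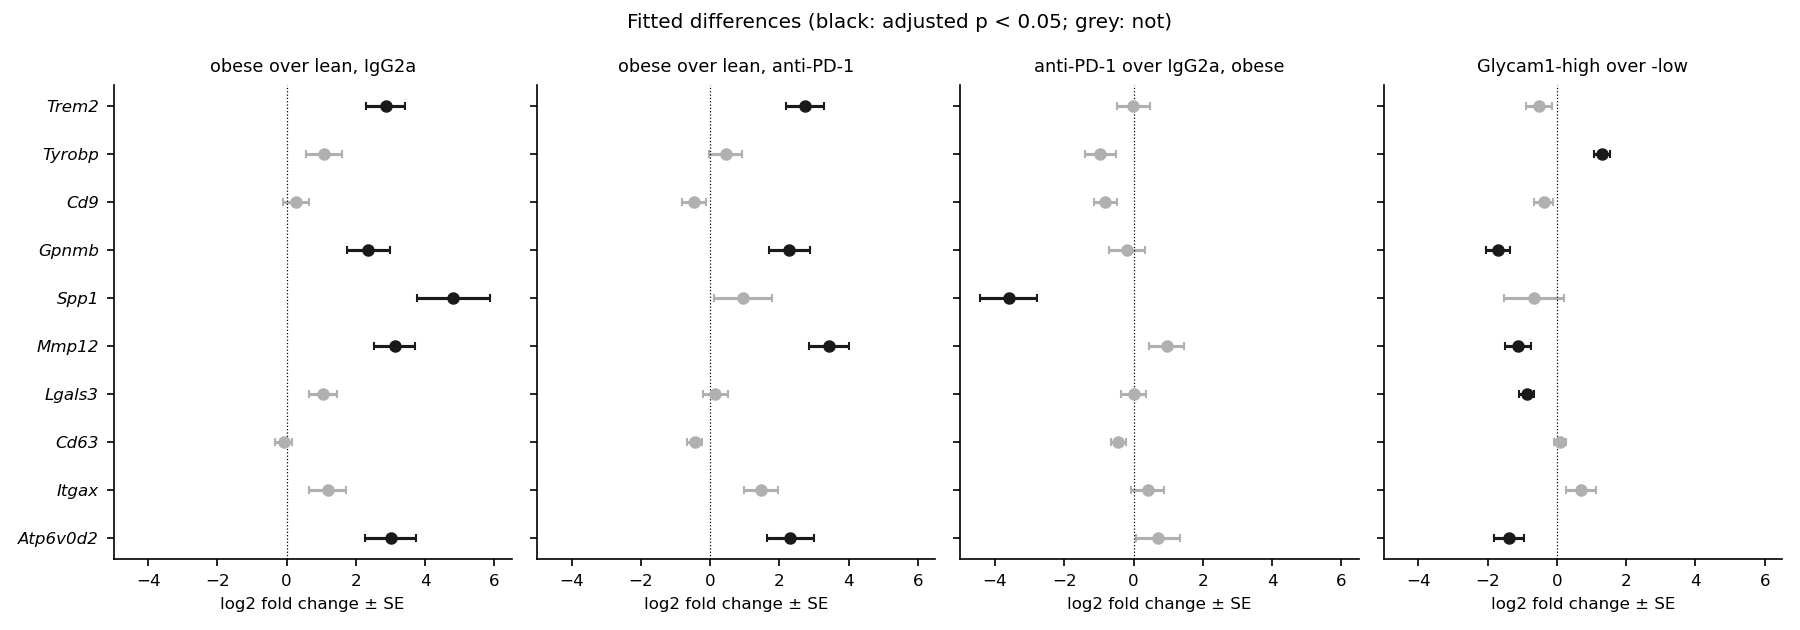
Fitted log2 fold changes with their SE for the 10 genes in 4 comparisons, black where called at an adjusted p under 0.05 and grey otherwise. Trem2, Gpnmb, Mmp12 and Atp6v0d2 are black in both obesity panels, Spp1 alone in the antibody panel, and Tyrobp stands on the opposite side from the 4 other called genes in the Glycam1 panel.

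**Figure D4:**
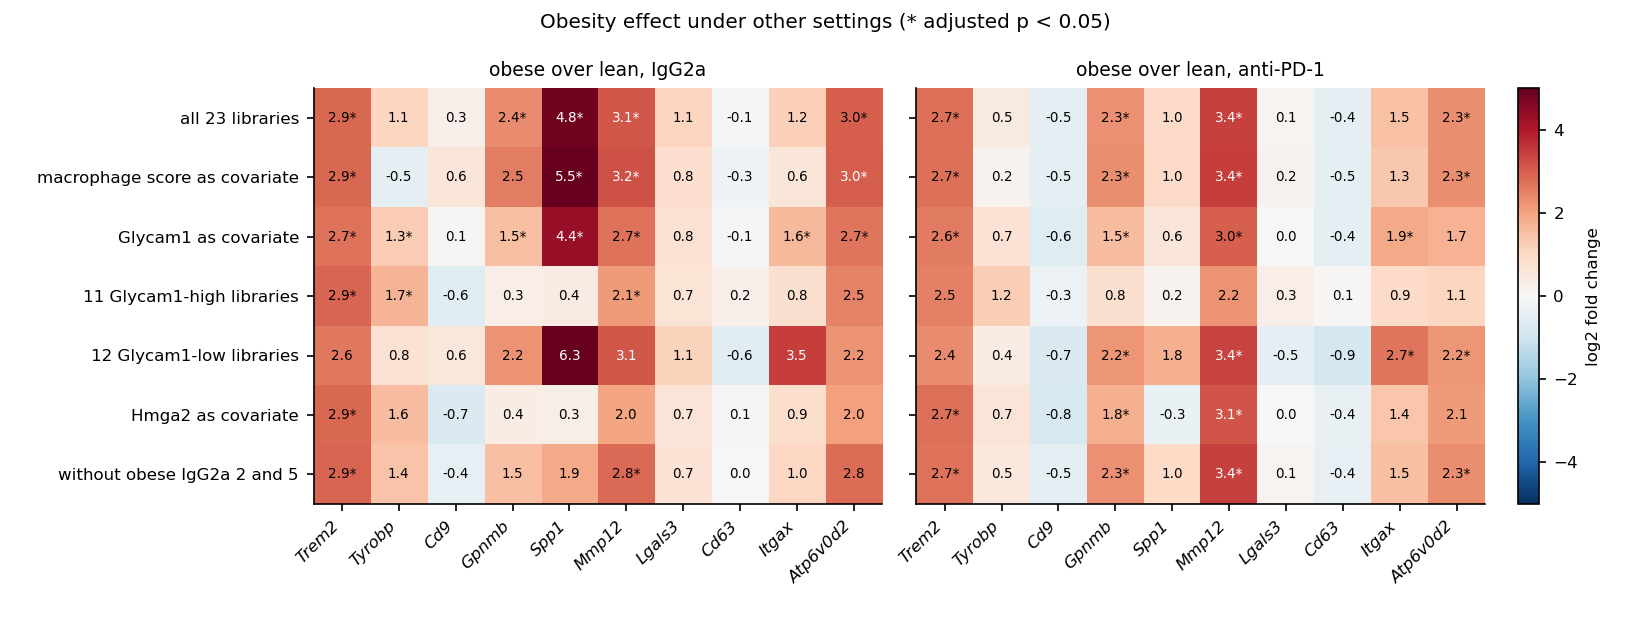
Log2 fold changes of obese over lean (colour and figures) for the 10 genes, with IgG2a on the left and anti-PD-1 on the right; rows are the fit of all 23 libraries and 6 other settings, and an asterisk marks an adjusted p under 0.05. Trem2 lies between 2.36 and 2.92 in every row, whereas Spp1 under IgG2a is 0.31 with Hmga2 as a covariate.

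Among mice on the 60% fat diet, anti-PD-1 against IgG2a left 9 of the 10 members uncalled, where 0.538% of all genes were called, 0.533% as lower. Spp1 alone fell, to a mean of 9.06 ± 8.96 CPM in obese anti-PD-1 libraries, against 110 ± 141 CPM in obese IgG2a libraries (SD, n = 8 and 5). The 2 groups overlapped, since obese IgG2a libraries 1 and 3 held 5.23 and 6.37 CPM. The log2 fold change was -3.60 (SE 0.822, edgeR adjusted p = 0.0498). It was -0.66 (edgeR adjusted p = 0.732) without obese IgG2a libraries 2 and 5, -0.45 (0.676) with Hmga2 as a covariate, and 0.21 (0.970) within the Glycam1-high libraries. It stayed called with log2 Glycam1 as a covariate (-3.57, edgeR adjusted p = 0.0233) and with DESeq2's test (-3.62, DESeq2 adjusted p = 4.6e-04). Within the Glycam1-low libraries it was -4.21. The obese IgG2a libraries there are 2, 4 and 5, those high in Hmga2, so that value cannot show whether Spp1 fell apart from them. Without obese IgG2a libraries 2, 4 and 5 it was 0.59 (edgeR adjusted p = 0.654). The call was lost in 20 of the fits that leave out a library. Hmga2 itself fell by 5.06 (edgeR adjusted p = 0.0373) in the same comparison. Tyrobp differed by -0.96 (SE 0.454, edgeR adjusted p = 0.356), and by -1.73 (0.0436) without obese IgG2a libraries 2, 4 and 5, Cd9 by -0.81 (SE 0.342, edgeR adjusted p = 0.300) and Mmp12 by 0.96 (SE 0.511, edgeR adjusted p = 0.416).

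In lean mice no gene was called between the antibodies by edgeR (472 genes at an unadjusted p under 0.05, and 22 called by DESeq2). Atp6v0d2 differed by 1.38 (SE 0.701, edgeR adjusted p = 1.00) and Tyrobp by -0.34 (SE 0.514, edgeR adjusted p = 1.00). The test of whether the obesity effect differed between the antibodies called no gene either (1449 at an unadjusted p under 0.05, and 50 called by DESeq2). For Spp1 that difference was -3.86 (SE 1.23, edgeR adjusted p = 0.480), so a difference in its obesity effect between antibodies was not shown. The antibody and obesity comparisons share libraries, and their values are given side by side only.

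Members differed in both directions with lymph node content. With group means in the fit, Tyrobp was higher in the Glycam1-high libraries and Gpnmb, Lgals3, Atp6v0d2 and Mmp12 were lower, where 42.7% of all genes were called (21.7% higher and 21.0% lower). These 2 sets come from Glycam1 and not from the labels. Over all groups Tyrobp had 13.2 to 74.8 CPM (median 28.1) in the 11 Glycam1-high libraries, against 7.08 to 38.4 CPM (median 12.7) in the 12 Glycam1-low ones. In obese anti-PD-1 mice, 38.2 and 46.8 CPM in 2 Glycam1-high libraries stood against 7.08 to 19.9 CPM in 6 Glycam1-low ones. In obese IgG2a mice, 63.6 and 74.8 CPM in 2 Glycam1-high libraries stood against 12.3 to 38.4 CPM in 3 Glycam1-low ones. The share of all genes that separate such small sets was not counted. Those 3 Glycam1-low libraries are 2, 4 and 5, the ones high in Hmga2. Node content and Hmga2 signal therefore cannot be told apart within obese IgG2a mice. The node comparison was not fitted with Hmga2 as a covariate or without these 3 libraries together. The log2 fold change of Tyrobp was 1.30 (SE 0.230, edgeR adjusted p = 1.2e-04).

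Gpnmb went the other way, with 7.79 to 23.1 CPM (median 11.5) in Glycam1-high and 9.63 to 168 CPM (median 60.3) in Glycam1-low libraries. In obese anti-PD-1 mice it held 11.1 and 23.1 CPM in 2 Glycam1-high libraries, against 41.2 to 168 CPM in 6 Glycam1-low ones. The share of all genes that separate these libraries was not counted, and 42.7% of all genes were called for Glycam1. Gpnmb fell by 1.71 on the log2 scale (SE 0.339, edgeR adjusted p = 3.7e-04). Lgals3 fell by 0.88 (SE 0.231, edgeR adjusted p = 0.00372), Atp6v0d2 by 1.39 (SE 0.436, edgeR adjusted p = 0.0131) and Mmp12 by 1.13 (SE 0.371, edgeR adjusted p = 0.0176). Mmp12 was -0.91 (edgeR adjusted p = 0.0579) without obese anti-PD-1 library 3. Trem2 at -0.53 (SE 0.378), Spp1 at -0.66 (SE 0.856), Cd9 at -0.38 (SE 0.273), Itgax at 0.69 (SE 0.429) and Cd63 at 0.09 (SE 0.165) were not called. Adipocyte markers moved with the same split, 6 of 8 being lower in Glycam1-high libraries, and their summed level was 4502 to 31347 CPM there against 6812 to 33248 CPM in Glycam1-low ones. Macrophage markers showed 3 of 10 higher and 1 lower, Adgre1, at -1.19 (edgeR adjusted p = 8.8e-04). The part of either list in the members' values was not tested.

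Genes around the members were read from lists by role. Of 11 genes for TREM2 ligands, shedding and signalling, none was called in either obesity comparison, among them Apoe, a lipoprotein that TREM2 binds, at 0.41 under IgG2a and 0.32 under anti-PD-1. Their median log2 fold change was 0.48 under IgG2a and -0.03 under anti-PD-1. Of 12 genes of lipid uptake and export, 1 rose and 2 fell under IgG2a, and 2 rose and 2 fell under anti-PD-1. Fabp5, a fatty acid carrier, fell by 1.79 and 1.13, and Plin2, a coat of lipid droplets, fell by 1.58 and 1.19. Msr1, a scavenger receptor, rose by 2.17 under IgG2a, whereas the cholesterol exporters Abcg1 and Abca1 rose by 1.34 and 1.19 under anti-PD-1. Fat cells and epithelium also make several of these proteins.

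Of 14 lysosomal proteases and hydrolases, none rose, Acp5 and Ctsd fell under IgG2a, and Ctsd fell under anti-PD-1. Acp5, an acid phosphatase of macrophages and osteoclasts, fell by 1.13 (edgeR adjusted p = 0.0285), and Ctsd, cathepsin D, by 1.07 and 0.86. Of 14 proton pump subunits and MiT factors, none was called under IgG2a and Atp6v0a1 rose by 1.25 (edgeR adjusted p = 0.0360) under anti-PD-1. Averaged over the antibodies Mitf and Atp6v0a1 rose, 2 of the 14. These counts stand beside 5.79% of all genes called under IgG2a, 10.1% under anti-PD-1 and 18.8% in the average.

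Partners of the secreted members and of CD11c were called in part. Of 9 receptors and partners of osteopontin and galectin-3, Cd44, a hyaluronan receptor that also binds osteopontin, rose by 2.08 (edgeR adjusted p = 0.0120) under IgG2a. Mertk, a receptor for the uptake of dying cells, rose by 1.83 and Itgb1, an integrin chain, by 0.97 under anti-PD-1. Of 6 integrin genes related to Itgax, Itgam, the CD11b chain of myeloid cells, rose by 2.12 under IgG2a. Itgad, the CD11d chain, averaged 31.2 ± 19.7 CPM in obese anti-PD-1 and 0.223 ± 0.297 CPM in lean anti-PD-1 libraries, and 12.4 ± 16.4 CPM in obese IgG2a and 0.214 ± 0.116 CPM in lean IgG2a libraries (SD, n = 8, 5, 5 and 5). It rose by 7.11 under anti-PD-1 and 5.84 under IgG2a (edgeR adjusted p = 0.00143 and 0.00836). Of 7 other tetraspanins, Tspan14 fell by 0.57 (edgeR adjusted p = 0.0429) under IgG2a and none was called under anti-PD-1. Of 12 genes named here and called under IgG2a that are not members (Cd68, Fcgr1, Cd44, Itgam, Itgad, Msr1, Fabp5, Plin2, Acp5, Ctsd, Tspan14 and S100a8), 4 stayed called without obese IgG2a libraries 2 and 5 (Itgam, Itgad, Fabp5 and S100a8). Without 2, 4 and 5 there were 3 (Itgam, Fabp5 and S100a8), and with Hmga2 as a covariate S100a8 alone.

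The genes most like Trem2 over the 23 libraries, once group means were taken out, were Sar1b (Pearson r = 0.85), Coa7 (0.83), Pole3 (0.83), Dnajb2 (0.83) and Pdap1 (0.82), of 14864 genes averaging at least 1 CPM. Among the members, Lgals3 (0.69) and Cd63 (0.57) were nearest, then Gpnmb (0.39), Mmp12 (0.33), Cd9 (0.27), Spp1 (0.21), Atp6v0d2 (0.20), Tyrobp (0.01) and Itgax (-0.19). Trem2 and its adaptor thus did not vary together within groups over all libraries. Within the 12 Glycam1-low libraries their r was 0.77, and within the 11 Glycam1-high ones -0.17. These values describe libraries that share depth and tissue make-up, and carry no test.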

How the data were processed

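RNA was extracted from tumor-adjacent fat pad, poly(A)-enriched and made into non-directional libraries, per the labels' protocols. The deposited transcript tables hold estimated counts, not normalized, and TPM, which corrects for transcript length and library total, per the file headers. The quantification program is not named in the sources used here. The submitters' processing notes name edgeR, limma and GRCm38, with no versions. The labels give no replicate numbers and do not state that each library is a separate mouse, so p-values measure the spread between libraries, which may be technical.

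Of 115088 transcripts, 114200 matched GENCODE M21 (GRCm38). Their estimated counts and TPM were summed over 47311 genes, and the counts rounded to whole numbers. Reads of Cd9, Spp1 and Mmp12 may include reads of overlapping annotated genes, whose summed counts came to 0.485%, 0.115% and 0.269% of theirs. Genes were kept by filterByExpr (minimum count 10, by group), scaled by TMM and fitted with 1 mean per group over all 23 libraries in edgeR 4.0.16 (R 4.3.3, robust dispersions). Each comparison used the two-sided quasi-likelihood test with Benjamini-Hochberg adjustment over 19882 genes, called under 0.05. CPM values use TMM-scaled library sizes. Glycam1-high and Glycam1-low libraries lie on the sides of the widest gap in sorted log2 Glycam1 CPM (prior count 2), and their difference was fitted beside the group means. That comparison tested 19881 genes, leaving Glycam1 out.

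Alternatives were DESeq2 1.42.0 size factors or Wald test, other filters (none, or above 1 CPM in at least 5 libraries), limma-trend 3.58.1 on log2(TPM + 1) or log2(TPM + 0.1), only the groups compared, Glycam1 or macrophage score covariates, each Glycam1 class alone, obese IgG2a 2 and 5 left out together, and each library left out in turn. The node comparison was also run with log2 Glycam1 CPM in place of the classes and with classes from B cell markers. The log2 Hmga2 covariate, the fit without obese IgG2a 2, 4 and 5, and the node comparison on log2(TPM + 1), were chosen after seeing the data. The edgeR fit was tested on simulated counts with known changes, for the comparison of obese and lean mice under IgG2a only. The other comparisons, fits and steps were not tested in this way.

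The 10 genes, the lists and the alternatives were chosen with earlier results of these data known. Named genes are the 10 members, Glycam1, Adgre1, Cd68 and Csf1r, up to 3 called genes of smallest p per list in each obesity comparison, and the 5 genes of highest r with Trem2. Apoe, Hmga2, Alb, Krt19 and the low osteoclast and tumor-like markers were chosen after their values were seen. Of the listed genes, Fdcsp was not matched, and the result of 1 macrophage marker is not reported here.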

Additional observations from a re-analysis of the deposited data

Results flagged for a closer look

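Of 40 sets of libraries (10 genes in 4 groups), 7 had a highest library whose gap to the next exceeded Dixon's 95% critical value. Chance gives about 1 in 20, or 2 of 40, if sets are independent and values normally distributed. Here CPM were compared unlogged, and all 7 flags lay in obese anti-PD-1 library 6 or lean anti-PD-1 library 2. The excess of 7 over 2 is therefore no measure of significance. Obese anti-PD-1 library 6 was set apart for 4 genes, with 168 CPM of Gpnmb, 107 CPM of Mmp12, 67.2 CPM of Itgax and 27.5 CPM of Atp6v0d2, each the highest of all 23 libraries. It was Glycam1-low and also held the group's highest Adgre1, at 68.0 CPM. Without it, the obesity effects under anti-PD-1 were 1.86 for Gpnmb, 2.96 for Mmp12, 1.08 for Itgax and 1.88 for Atp6v0d2, and of the 3 called genes among them only Atp6v0d2 lost its call (edgeR adjusted p = 0.0698).

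Lean anti-PD-1 library 2 was set apart for 3 genes, with 3.00 CPM of Trem2, 20.4 CPM of Gpnmb and 418 CPM of Lgals3. It was Glycam1-low and held 1298 CPM of Krt19. Without it, the obesity effects under anti-PD-1 were 3.27 for Trem2, 2.56 for Gpnmb and 0.87 for Lgals3, and Lgals3 averaged over the antibodies passed the test at 0.96 (edgeR adjusted p = 0.00313).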

How the results depend on the processing

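Log2 fold changes and counts of calls are given for edgeR unless another tool is named, and the cause of a change was not tested. No paired analysis was possible because the labels give no replicate numbers, and numbers in accession order only name libraries. Beside the values as reported, other settings kept the direction and the side of the threshold for 468 values of members, lost a call for 51, gained one for 17 and turned the sign of 31, none of these 31 being called in the reported fit except Spp1.

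Under IgG2a, the obesity comparison called 583 genes with only the groups compared, 2932 with the Glycam1 covariate, 255 in Glycam1-low and 1896 in Glycam1-high libraries, 597 with the macrophage score, 230 with the Hmga2 covariate, 293 without obese IgG2a 2 and 5, 344 without obese IgG2a 2, 4 and 5 (1 member), and 2090 with DESeq2's test. Of the 10 members it called 0 in Glycam1-low libraries, where lean IgG2a has 1 library, assumed to vary like the others. It called 3 members in Glycam1-high libraries, 1 with the Hmga2 covariate and 2 without obese IgG2a 2 and 5. Under anti-PD-1 it called 3576 and 3708 genes with limma on log2(TPM + 1) and log2(TPM + 0.1), 574 in Glycam1-high libraries (0 members) and 3122 with DESeq2's test. Averaged, it called 5807 and 5777 on the TPM scales, 1317 with the Hmga2 covariate (3 members) and 2370 without obese IgG2a 2 and 5, 1690 without 2, 4 and 5, and 3 members in Glycam1-high libraries.

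For anti-PD-1 against IgG2a in obese mice, genes called were 70 with no filter, 49 with the stricter one, 515 with the Glycam1 covariate, 767 in Glycam1-low libraries, 2034 without obese IgG2a 2, 4 and 5 (1 member, Tyrobp) and 399 with DESeq2's test. They were 0 on both TPM scales, with only the groups compared, in Glycam1-high libraries, with the macrophage score, with the Hmga2 covariate and without obese IgG2a 2 and 5. In those settings, under both filters and with DESeq2's size factors the members called were 0. In lean mice genes called were 1 with only the groups compared, 2 in Glycam1-low libraries and 22 with DESeq2's test, and for the interaction 2 in Glycam1-low libraries and 50 with DESeq2's test.

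Leaving out each library in turn gave 495 to 1662 genes and 3 to 6 members under IgG2a (495 to 716 genes without obese IgG2a 2 or 5 or lean IgG2a 1, 2 or 5, and 3 members without lean IgG2a 1 or 2). It gave 1108 (without lean anti-PD-1 4) to 2432 genes and 3 to 5 members under anti-PD-1, and 2991 to 4509 genes and 6 to 7 members for the average. In obese mice it gave 0 to 643 genes and 0 to 1 member for the antibody, the Spp1 call remaining only without obese IgG2a 1, 3 or 4 (edgeR adjusted p = 0.0174, 0.0217 and 0.0197). It gave 0 to 1 gene for the interaction (1 without obese IgG2a 4), and 7011 to 8834 genes and 4 to 6 members for Glycam1.

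Signs turned for Cd63 on both TPM scales (0.25 under IgG2a, 0.05 under anti-PD-1, 0.15 averaged, and -0.09 for Glycam1 on log2(TPM + 1)), in Glycam1-high libraries (0.24, 0.06 and 0.15), and under IgG2a with the Hmga2 covariate (0.05) and without obese IgG2a 2 and 5 (0.02) or 2, 4 and 5 (0.26). Cd9 turned under IgG2a in Glycam1-high libraries (-0.59), with the Hmga2 covariate (-0.71) and without obese IgG2a 2 and 5 (-0.41) or 2, 4 and 5 (-0.52). Averaged it turned on both TPM scales (0.13) and with the macrophage score (0.07), and for the antibody in obese mice in Glycam1-high libraries (0.10). Tyrobp turned with the macrophage score under IgG2a (-0.46), averaged (-0.13) and for the antibody in obese mice (0.47). Lgals3 turned under anti-PD-1 in Glycam1-low libraries (-0.48). Spp1 turned with the Hmga2 covariate under anti-PD-1 (-0.35) and averaged (-0.02), and for the antibody in obese mice in Glycam1-high libraries (0.21) and without obese IgG2a 2, 4 and 5 (0.59). That omission also turned Spp1 in the interaction (0.34), and put Cd9 at 0.00 for the antibody in obese mice. With 1 library left out, Cd9 spanned -0.12 to 0.47 and Cd63 -0.18 to 0.05 under IgG2a, Lgals3 -0.07 to 0.87 under anti-PD-1, Cd9 -0.29 to 0.01 averaged, and Cd63 -0.02 to 0.19 for Glycam1.

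Atp6v0d2 lost its call under anti-PD-1 without obese anti-PD-1 1 or 6 or lean anti-PD-1 2, 3 or 5, and Gpnmb under IgG2a without obese IgG2a 2 or 5 or lean IgG2a 1, 2, 3 or 4. Itgax passed the test under anti-PD-1 without lean anti-PD-1 1 (2.01) or lean IgG2a 5 (edgeR adjusted p = 0.0426), and for Glycam1 without obese anti-PD-1 6 (0.89). Averaged over the antibodies, Tyrobp (0.94) and Lgals3 (1.09) passed on the log2(TPM + 1) scale with limma. Without obese IgG2a 2, 4 and 5 the average gained Tyrobp (1.21) and lost Spp1 (0.81) and Itgax (1.31). Each library held at least 49438121 estimated counts, and the biological coefficient of variation between libraries was 0.805.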
